A study of Homo sapiens with 101 samples.

Results

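The 9 genes AKR1C3, AKR1B10, GPX2, NQO1, TXNRD1, GCLM, GCLC, HMOX1 and SRXN1 encode detoxifying and antioxidant enzymes that belong to the programme of the transcription factor NRF2. They were chosen by symbol, as all 17 probe sets whose platform annotation names 1 of them, and each gene was read from its probe set with the highest mean over all arrays. All 9 were measured, among 19775 genes in all. Both lines studied, SW480 and SW620, come from the colorectal cancer of 1 patient: SW480 was grown out of the primary tumour and SW620 out of a later node metastasis. Each line carried 1 of 9 treatments. For 6 of them a short hairpin RNA was aimed at CDK5, HRAS, MAP2K1, MAP2K2, MAPK3 or NGFR, and the other 3 were an empty vector, a non-target hairpin and cells that were not transduced. The labels name no promoter for the vector, no time and no dose. They give 1 hairpin code per gene, except that 2 codes occur for HRAS, so for 5 genes a knockdown stands for a single hairpin. The HRAS codes follow the label series described below, 1 code in replicate 1 and the other in replicates 3 to 6, with no code given in replicate 2, so hairpin and series cannot be told apart in HRAS values by series. The data are Affymetrix arrays in 18 groups, with 6 arrays in 15 groups, 5 for the CDK5 knockdown in SW620 and 3 for each group without transduction. The labels number the arrays of a group as biological replicates but do not say that they came from separate cultures, so the p-values measure the spread between these arrays, which may be technical.

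NRF2, encoded by NFE2L2, is held at a low level by KEAP1, which hands it to a CUL3 ubiquitin ligase for breakdown. Electrophiles and oxidants modify KEAP1, NRF2 then accumulates, pairs with a small MAF protein and binds antioxidant response elements in front of its target genes, where BACH1 can compete with it. The gut lining is known for high NRF2-dependent detoxification, and GPX2 is the glutathione peroxidase of gut epithelium. AKR1C3 and AKR1B10 reduce carbonyl compounds, NQO1 reduces quinones, TXNRD1 and SRXN1 regenerate thioredoxin and peroxiredoxins, GCLM and GCLC form the ligase that starts glutathione synthesis, and HMOX1 degrades heme.

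The genes lie on 9 chromosomes (GRCh38.p14, RefSeq): AKR1C3 on chromosome 10 at 5048781-5107686, AKR1B10 on chromosome 7 at 134527567-134541412, GPX2 on chromosome 14 at 64939158-64942745, NQO1 on chromosome 16 at 69709401-69726560 and TXNRD1 on chromosome 12 at 104215779-104350307. GCLM lies on chromosome 1 at 93885199-93909430, GCLC on chromosome 6 at 53497341-53545101, HMOX1 on chromosome 22 at 35381096-35394207 and SRXN1 on chromosome 20 at 646615-653200. The 250 bases before the listed start are printed for 3 of them: GPX2 and AKR1C3, because they carried the widest differences in these arrays, and GCLM, because it was called in the most comparisons of a knockdown with its controls in SW620. Capitals mark a match to the core of the antioxidant response element, TGACNNNGC, which was searched on both strands. The windows are GPX2 at chr14:64942746-64942995 (minus strand), AKR1C3 at chr10:5094164-5094413 (plus strand, the second of its 2 listed starts) and GCLM at chr1:93909431-93909680 (minus strand), each written 5′ to 3′ from RefSeq (GRCh38.p14).
GPX2: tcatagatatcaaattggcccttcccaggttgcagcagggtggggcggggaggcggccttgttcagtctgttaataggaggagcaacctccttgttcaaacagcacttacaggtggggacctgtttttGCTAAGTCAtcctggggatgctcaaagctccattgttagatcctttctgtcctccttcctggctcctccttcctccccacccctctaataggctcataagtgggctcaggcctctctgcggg
AKR1C3: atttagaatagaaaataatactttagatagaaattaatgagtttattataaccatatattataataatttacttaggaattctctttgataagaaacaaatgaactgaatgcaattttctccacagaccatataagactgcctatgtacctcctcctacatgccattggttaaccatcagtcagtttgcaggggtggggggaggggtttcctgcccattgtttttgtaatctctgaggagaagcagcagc
GCLM: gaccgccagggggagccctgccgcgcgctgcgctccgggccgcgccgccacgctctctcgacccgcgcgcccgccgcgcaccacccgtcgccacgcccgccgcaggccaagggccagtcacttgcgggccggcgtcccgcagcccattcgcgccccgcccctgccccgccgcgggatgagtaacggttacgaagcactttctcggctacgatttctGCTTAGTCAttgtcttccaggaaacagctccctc
The GPX2 match, TGACTTAGC on the opposite strand, begins 114 bases before the start, and the GCLM match, TGACTAAGC on the opposite strand, 26 bases before it. Of the 7 members with a window in the RefSeq table, which are all but AKR1B10 and HMOX1, 3 held the motif: GPX2, GCLM and TXNRD1. TXNRD1 held it before both of its listed starts, as TGACTTCGC at 91 bases and, on the opposite strand, TGACAAAGC at 94 bases. No match was found in the windows of AKR1C3, GCLC, NQO1 and SRXN1. Over all 35116 windows of this length, 10.9% held the motif. An AP-1 site, TGANTCA, was searched as well and was in 6.57% of all windows and in none of the members'. A match describes letters only.

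Array medians lay between 5.05 and 5.28 (log2). Sample names are written in 4 styles, each termed a label series, which hold replicate 1 (17 arrays), replicate 2 (18), replicates 3 to 6 (64) and replicate 7 (2, both without transduction). The levels of the members followed these series: the SD within a group, as a median over 16 groups, was 0.71 for GCLM and 0.50 for GPX2 over all arrays, but 0.053 and 0.049 among replicates 3 to 6. All changes below are therefore log2 differences adjusted for label series, ± the standard error of a limma fit of all arrays. Between the lines, series terms are nested in line and remove no series effect. There the level of each line is set at the mean of replicate 1, replicate 2 and replicates 3 to 6. Each adjusted p is limma's, after Benjamini-Hochberg over all genes, and a gene is called when it is under 0.05. Where arrays are said to lie above or under all controls, this describes them only. The share of all genes so separated was not counted, and the spread among replicates 3 to 6 is small. A set of 3 SW480 arrays stood apart, replicate 1 of the MAP2K1, MAP2K2 and MAPK3 knockdowns. On a scale where the vector controls of replicates 3 to 6 are at 0 in SW480 and at 1 in SW620, they stood at 0.25 to 0.48 over 100 genes higher in SW620 and at 0.56 to 0.81 over 100 genes higher in SW480. The other 45 transduced SW480 arrays stood at -0.02 to 0.11 and at -0.01 to 0.53, and all SW620 arrays at 0.40 to 1.02 and at 0.91 to 1.02. Controls of replicate 1, the series of the 3 arrays, read 0.64 and 0.69 over the first genes in SW620, and 0.24 and 0.33 over the second in SW480. On the array labelled MAPK3 knockdown, replicate 1, in SW480, MAPK3 itself was 0.15 above its controls, so no fall of the target was seen. On the replicate 1 arrays of the MAP2K1 and MAP2K2 knockdowns in SW480, the targets changed by -2.38 and -2.99. The cause of the place of these arrays was not tested. Another 3 arrays, all in SW620, had a GAPDH 3′ minus 5′ difference of 2.95 to 6.04, against at most 1.47 elsewhere, a sign of degraded RNA: MAP2K1 and MAPK3 knockdowns, replicate 2, and NGFR knockdown, replicate 1. Each targeted gene was lower in its own knockdown, with changes from -3.43 (NGFR) to -0.32 (MAPK3) in SW480 and from -1.86 (MAP2K1) to -0.52 (NGFR, the only one not called, adjusted p = 0.136) in SW620. Of 8 epithelial markers 7 were above 6 in both lines, and the 3 measured leukocyte markers lay between 3.94 and 5.26. Of 5 fibroblast markers 1 was above 6 in SW480 and 2 were in SW620. In bulk samples, fewer cells with a transcript and less of it per cell cannot be told apart.

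In the vector controls, AKR1C3 and GPX2 were far higher in SW620 than in SW480, GCLC and NQO1 were moderately higher, and GCLM and HMOX1 were lower. The vector controls are the empty vector and the non-target hairpin, 12 arrays a line. AKR1C3, an enzyme of steroid and prostaglandin metabolism, had a lowest, median and highest level of 3.63, 4.01 and 4.65 in SW480 and of 8.94, 10.61 and 10.99 in SW620. GPX2, which reduces hydroperoxides with glutathione, ranged over 5.64, 6.23 and 6.44 in SW480 and 10.32, 11.42 and 11.48 in SW620. For both genes every SW620 control lay above every SW480 control. The SW480 control mean of AKR1C3, 4.06, was at the 14.1 percentile of all genes, and no detection call was used, so its log2 differences from these controls are given without a fold.

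The line difference, SW620 minus SW480, was 5.92 ± 0.34 for AKR1C3 (adjusted p = 5.82e-27) and 4.64 ± 0.29 for GPX2 (25.0-fold, adjusted p = 9.1e-25). These are fitted values with label series weighted alike, so they need not equal the differences of the control means. In all, 6 of the 9 members were called, where 45.3% of all genes were. GCLC, the catalytic subunit of glutamate-cysteine ligase, was higher in SW620 by 0.81 ± 0.08 (adjusted p = 2.89e-15), with control means of 8.61 ± 0.76 (SD, n = 12) in SW480 and 9.32 ± 0.44 in SW620. NQO1 was higher by 0.84 ± 0.19 (adjusted p = 0.00012), with 10.67 ± 0.22 in SW480 and 11.31 ± 0.33 in SW620. GCLM, the modifier subunit of glutamate-cysteine ligase, ran the other way from GCLC: it was lower in SW620 (-0.88 ± 0.14, adjusted p = 6.45e-08), with 9.48 ± 0.75 and 8.48 ± 0.67. HMOX1, which opens the heme ring, was also lower in SW620 (-0.78 ± 0.11, adjusted p = 2.95e-09), with 6.77 ± 0.32 and 5.80 ± 0.23. The 3 members not called were TXNRD1 (-0.21 ± 0.09, adjusted p = 0.064), SRXN1 (0.17 ± 0.09, adjusted p = 0.116) and AKR1B10 (0.09 ± 0.06, adjusted p = 0.224). AKR1B10 stood at 4.20 ± 0.38 and 4.25 ± 0.38, under the array medians in both lines, as did AKR1C3 in SW480.

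**Figure D1:**
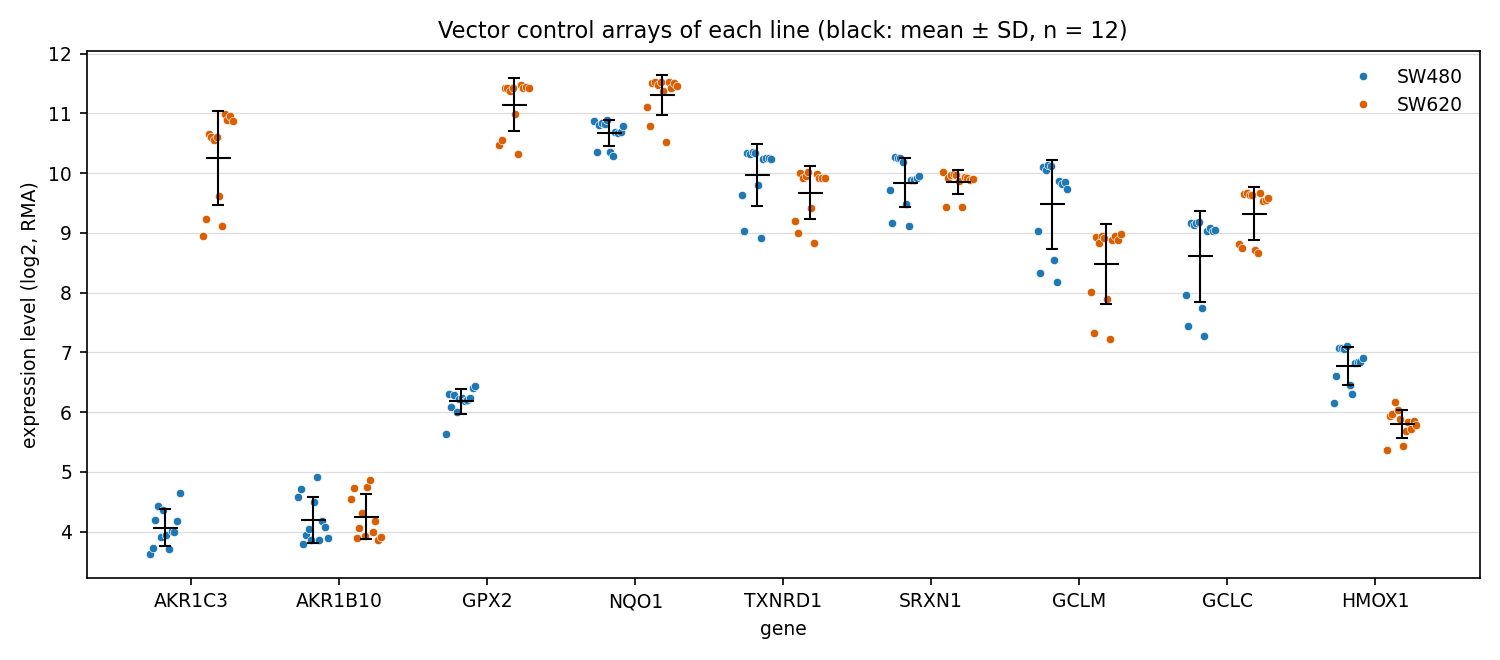
Log2 level of the 9 members on the 24 vector control arrays, SW480 beside SW620, 12 arrays each, with 1 point per array and the mean ± SD in black. AKR1C3 (means 4.06 and 10.25) and GPX2 (6.19 and 11.14) separate the lines without overlap, and AKR1B10 lies near 4 in both.

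The 6 called line differences kept their call under all 17 alternatives run for them. With the mean of both GPX2 probe sets its difference was 2.64, since the second one read 4.02 in SW480 and 5.08 in SW620, and with replicates 3 to 6 only that of GCLC was 0.51.

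Over all arrays at most 3 of the 9 members were called in any 1 knockdown, counts that moved with single replicates. In SW480 the calls were 1 of 9 members for CDK5 (8.06% of all genes were called), 2 for HRAS (26.2%), 1 for MAP2K1 (6.54%), 1 for MAP2K2 (5.17%), 3 for MAPK3 (10.7%) and 3 for NGFR (24.0%). In SW620 they were 2 for CDK5 (24.0%), 3 for HRAS (31.0%), 1 for MAP2K1 (19.1%), 1 for MAP2K2 (23.2%), 3 for MAPK3 (29.8%) and none for NGFR (26.3%), where 1 member had an unadjusted limma p under 0.05. Without replicate 1 the counts in SW480 were 8 of 9 for MAPK3, 5 for NGFR and 2 for MAP2K1. Of all 19775 genes 3184, 6296 and 2063 were then called. In SW620 the counts were 5 for CDK5, 6 for HRAS, 3 for MAP2K1, 3 for MAP2K2, 5 for MAPK3 and 1 for NGFR. There 7038, 7726, 6203, 7277, 8411 and 6285 of all genes were called. Without replicate 2 the member counts were 5 for NGFR, 2 for MAP2K1 and 2 for MAP2K2 in SW480, with 5767, 3383 and 2432 of all genes called. In SW620 they were 2 for MAP2K2, 1 for MAPK3 and none for MAP2K1, with 5447, 5758 and 3749 of all genes called. Leaving out replicate 3, 4, 5 or 6 left none for MAP2K1 (2326 to 2435 of all genes) and 1 for CDK5 (2989 to 3066) in SW620. Leaving out replicate 3 left 1 for HRAS in SW480 (3234 of all genes), and leaving out replicate 4 gave 2 for MAP2K2 in SW620 (2766). With replicates 3 to 6 alone the member counts were 6 to 9 in SW480 and 3 to 8 in SW620. Of all genes 6605 to 9682 were called there in SW480 and 8212 to 10518 in SW620. The 8 for MAPK3 in SW480 without replicate 1, whose array showed no fall of MAPK3, were 7 members higher and HMOX1 lower. Beside AKR1C3 (1.38) and GPX2 (1.88), these were NQO1 (0.50), SRXN1 (0.41), GCLM (0.40), TXNRD1 (0.34) and GCLC (0.18), with HMOX1 at -0.34. The median change of the 9 members over all arrays was largest in SW480 for the MAP2K2 knockdown (0.23, against 0 over all genes) and in SW620 for MAPK3 (0.21, against -0.01). In SW620 the members' share of calls was near the background share or under it in each knockdown. GPX2 was called in 4 SW480 knockdowns and in no SW620 knockdown, and GCLM was called in 4 SW620 knockdowns and in 1 of SW480.

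**Figure D2:**
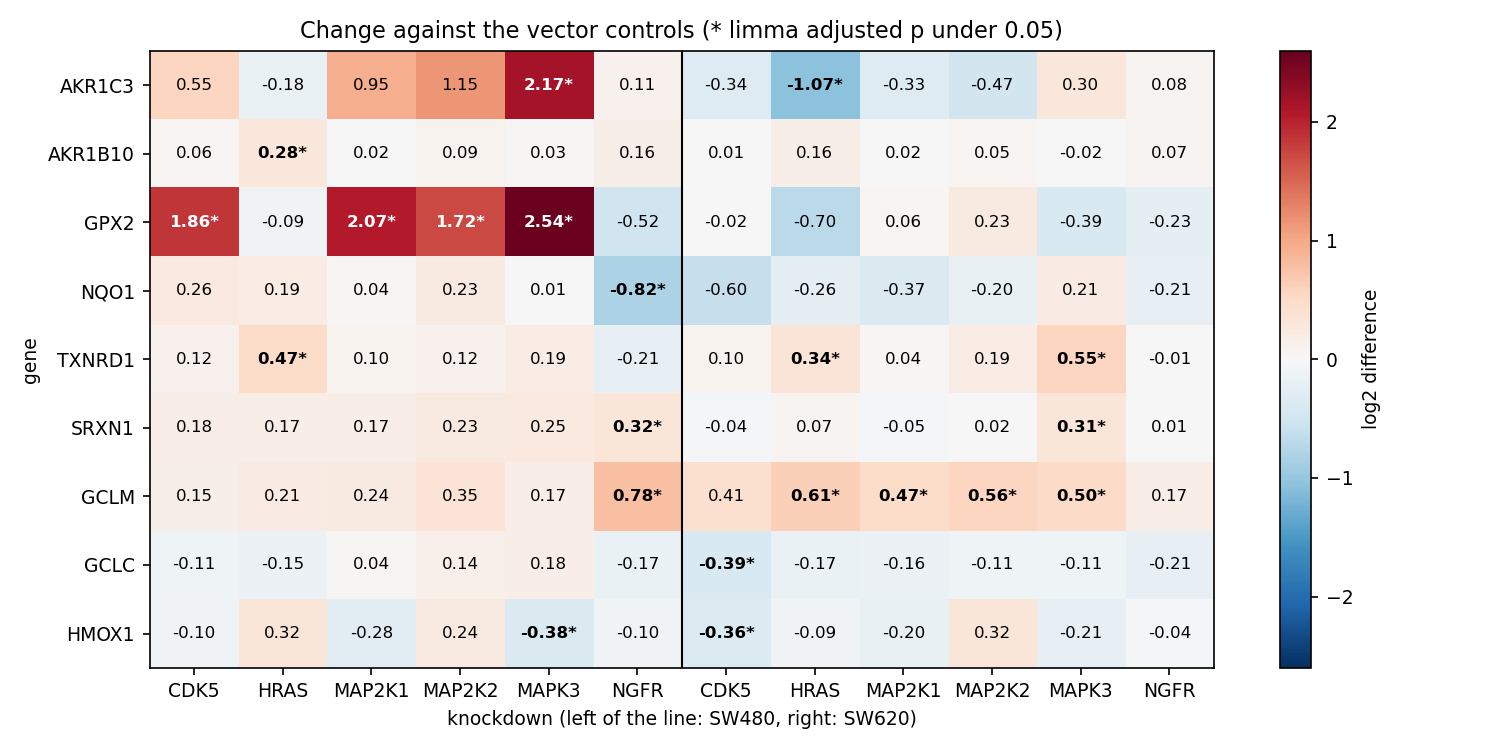
Log2 change of each member (rows) in each knockdown (columns) against the vector controls of the same line, adjusted for label series, with calls at an adjusted p under 0.05 marked. The widest changes are those of GPX2 (2.54) and AKR1C3 (2.17) for MAPK3 in SW480, followed by GPX2 for MAP2K1 (2.07), CDK5 (1.86) and MAP2K2 (1.72).

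GPX2 rose in 4 of the 6 SW480 knockdowns, those of the kinases CDK5, MAP2K1, MAP2K2 and MAPK3, and AKR1C3 rose with it in the MAPK3 knockdown. MAP2K1 and MAP2K2 are the MEK kinases and MAPK3 is the ERK kinase that they phosphorylate. In the CDK5 knockdown GPX2 had a lowest, median and highest level of 7.23, 7.91 and 9.51, in the MAP2K1 knockdown of 7.15, 7.93 and 10.65, and in the MAP2K2 knockdown of 6.82, 7.30 and 11.48. In the MAPK3 knockdown these values were 6.86, 8.43 and 11.80. In each of the 4 knockdowns the highest array was replicate 1, the lowest was replicate 2, and all 6 arrays lay above all 12 SW480 controls, of which the highest was 6.44.

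The GPX2 change was 1.86 ± 0.34 for CDK5 (3.63-fold, adjusted p = 3.65e-05), 2.07 ± 0.34 for MAP2K1 (4.21-fold, adjusted p = 6.04e-06), 1.72 ± 0.34 for MAP2K2 (3.29-fold, adjusted p = 0.000343) and 2.54 ± 0.34 for MAPK3 (5.82-fold, adjusted p = 1.44e-08). All 4 were highest in replicate 1: by label series, the change was 3.57, 0.98 and 1.65 for CDK5 in replicate 1, replicate 2 and replicates 3 to 6, and 4.71, 0.91 and 1.71 for MAP2K1. For MAP2K2 it was 5.55, 0.57 and 1.04, and for MAPK3 5.86, 0.61 and 2.19. Without the 3 SW480 arrays that stood apart, the changes were 1.63 for MAP2K1, 1.04 for MAP2K2 (adjusted p = 0.00635) and 1.96 for MAPK3, all still called. The CDK5 value does not use those arrays as knockdown samples, and without all SW480 arrays of replicate 1 it was 1.52. With both GPX2 probe sets averaged, the 4 changes were 0.96, 1.12, 0.94 and 1.40, all called.

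**Figure D3:**
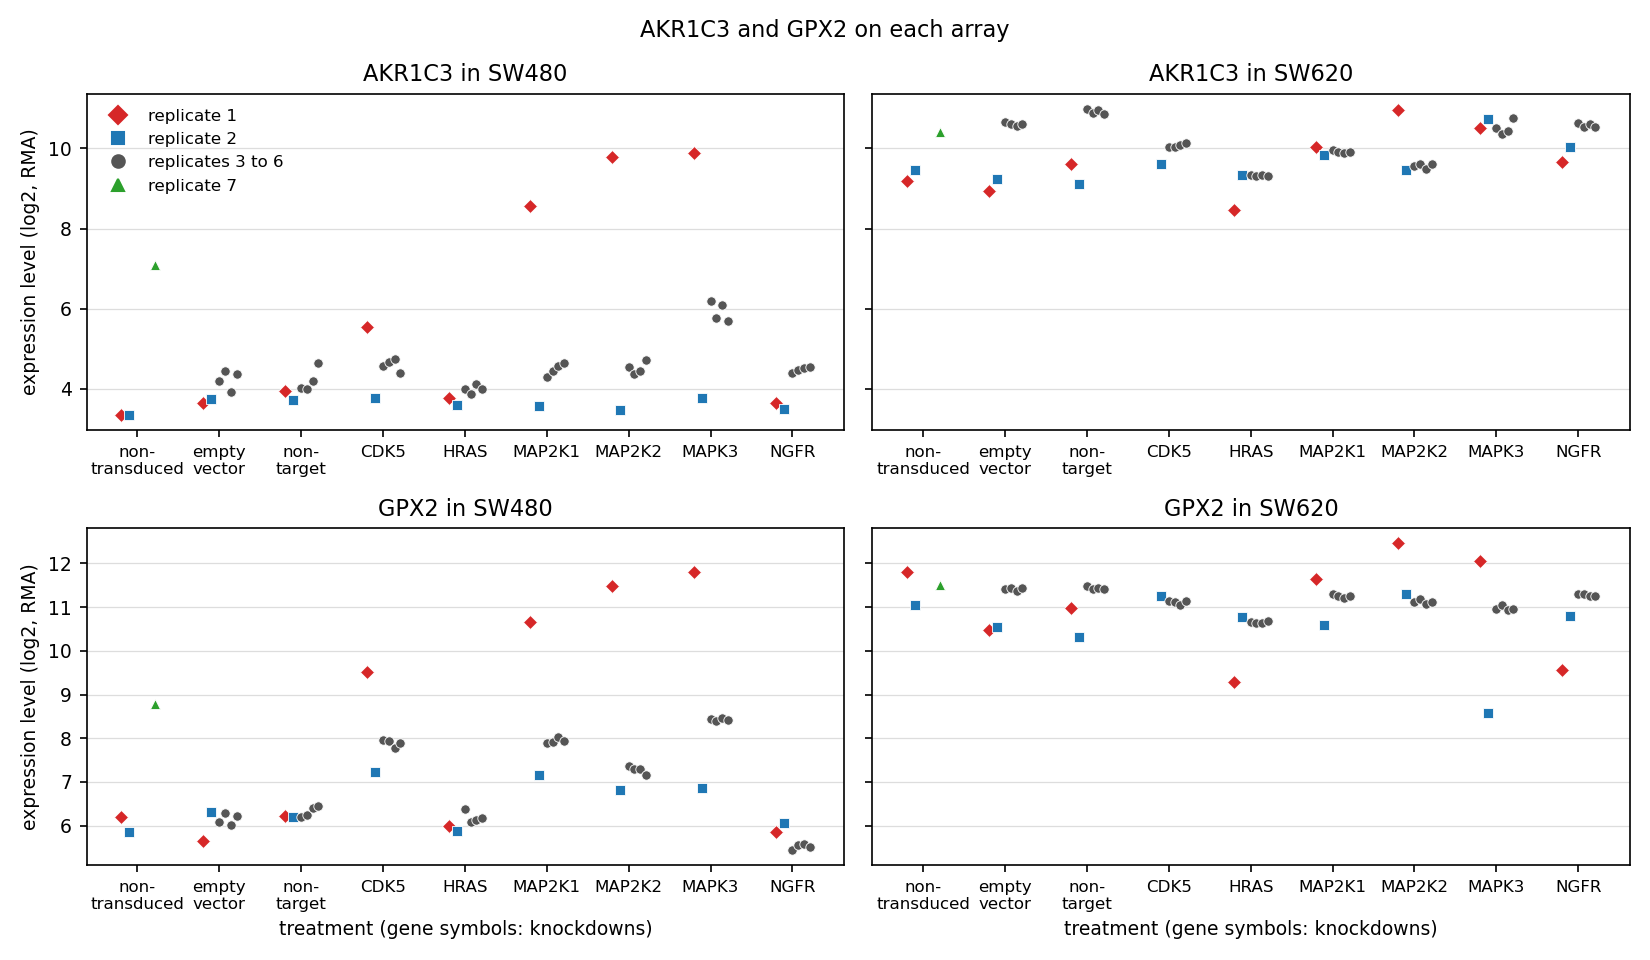
Log2 level of AKR1C3 and GPX2 on every SW480 and SW620 array by treatment, with 1 point per array and a colour and shape for each label series. In SW480 all GPX2 points of the CDK5, MAP2K1, MAP2K2 and MAPK3 knockdowns lie above the controls, and AKR1C3 reaches 8.57 to 9.89 on 3 replicate 1 arrays.

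In the HRAS and NGFR knockdowns of SW480 GPX2 was not called. It ranged from 5.88 to 6.38 in the HRAS knockdown (-0.09 ± 0.34, adjusted p = 0.881, 95% interval -0.76 to 0.58) and from 5.45 to 6.05 in the NGFR knockdown (-0.52 ± 0.34, adjusted p = 0.292, interval -1.19 to 0.16). The HRAS values lay among the controls, while the 4 NGFR arrays of replicates 3 to 6, at 5.45 to 5.59, lay under all SW480 controls of their series. HRAS itself fell by 1.86 in its own SW480 knockdown. MAPK3, whose knockdown had the largest GPX2 change in SW480, fell least of all targets there. The bearing of knockdown depth on GPX2 was not tested. Without the 3 SW480 and the 3 degraded arrays GPX2 fell in the NGFR knockdown (-0.52, adjusted p = 0.032).

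AKR1C3 in the MAPK3 knockdown of SW480 read 9.89 in replicate 1, 3.77 in replicate 2 and 6.19, 5.76, 6.09 and 5.70 in replicates 3 to 6. The 4 arrays of replicates 3 to 6 all lay above every control, the highest of which was 4.65, while replicate 2 was close to its own controls (3.73 and 3.71). The change was 2.17 ± 0.39 (adjusted p = 2.76e-05), with 6.10, 0.05 and 1.72 in replicate 1, replicate 2 and replicates 3 to 6. Without the 3 arrays apart it was 1.41 (adjusted p = 2.18e-07).

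In the MAP2K1 and MAP2K2 knockdowns only the replicate 1 arrays had high AKR1C3, at 8.57 and 9.78. Their other 5 arrays lay at 3.57 to 4.63 and at 3.47 to 4.71. Neither change was called (0.95 ± 0.39, adjusted p = 0.148, and 1.15 ± 0.39, adjusted p = 0.0708), and both were 0.22 without the 3 arrays apart. In the CDK5 knockdown AKR1C3 was 5.55 in replicate 1 and 3.76 to 4.74 elsewhere (0.55 ± 0.39, adjusted p = 0.47), and in the HRAS and NGFR knockdowns no array exceeded 4.55. Among SW480 cells without transduction, AKR1C3 was 3.34, 3.35 and 7.08 in replicates 1, 2 and 7, and GPX2 was 6.19, 5.86 and 8.79. The replicate 7 array thus exceeded every SW480 control for both genes without any hairpin. It stood at 0.17 over the genes higher in SW620, above the other SW480 arrays but the 3 apart, and at 0 over those higher in SW480.

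**Figure D4:**
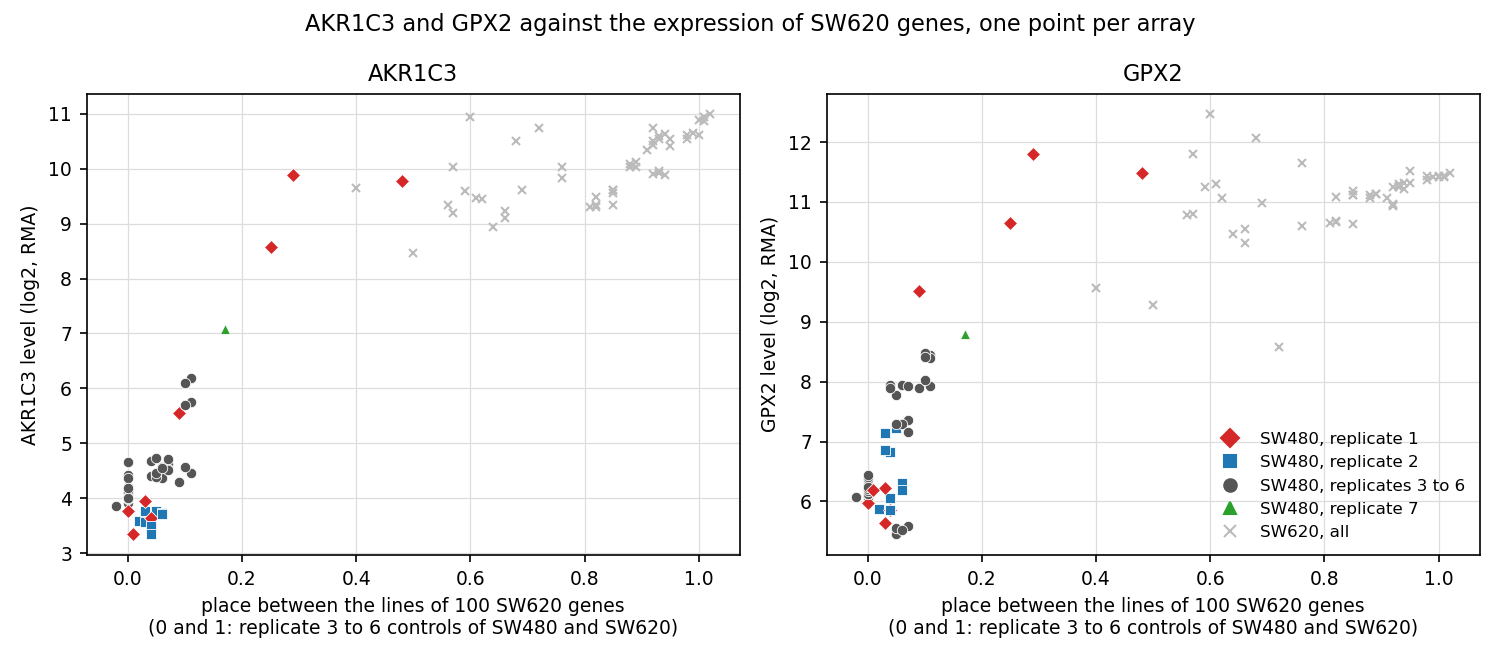
AKR1C3 and GPX2 level (log2, vertical axes) against the place of each array between the lines over 100 genes higher in SW620 (horizontal axes, 0 and 1 for the replicate 3 to 6 controls of SW480 and SW620), with SW480 arrays by label series and SW620 arrays in grey. The 3 SW480 arrays apart stand at 0.25 to 0.48 with AKR1C3 at 8.57 to 9.89, and the other 45 transduced SW480 arrays at -0.02 to 0.11 with AKR1C3 at 3.47 to 6.19.

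The 3 arrays apart had both genes at SW620 levels, with AKR1C3 at 8.57 to 9.89 and GPX2 at 10.65 to 11.80, where SW620 arrays ranged from 8.46 to 10.99 and from 8.57 to 12.46. The 4 MAPK3 arrays of replicates 3 to 6 had a position of only 0.10 to 0.11, at the upper end of the other SW480 arrays. NQO1, which is higher in SW620, was low on 2 of the 3 arrays: it read 9.84 in the MAP2K1 knockdown and 8.17 in that of MAPK3, under all SW480 controls (10.29 to 10.89), and 11.04 in that of MAP2K2. GCLM, which is lower in SW620, was 7.83 on the replicate 1 array labelled MAPK3 knockdown, against 9.03 and 8.54 on the controls of that series. SRXN1 read 9.07 and TXNRD1 9.13 on the same array, each under its replicate 1 controls.

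In SW620, where both genes start high, GPX2 was called in no knockdown and AKR1C3 only in that of HRAS. AKR1C3 ranged over 8.46, 9.32 and 9.34 (lowest, median and highest) in the HRAS knockdown of SW620. By series the controls read 8.94 to 9.62 in replicates 1 and 2 and 10.55 to 10.99 in replicates 3 to 6. The HRAS arrays of replicates 3 to 6 were under all their controls, replicate 1 was under its own too, and replicate 2 was above both of its own (9.24 and 9.11). The change was -1.07 ± 0.39 (2.10-fold, adjusted p = 0.0294), with -0.82, 0.17 and -1.44 in replicate 1, replicate 2 and replicates 3 to 6. The call ended with any 1 of replicates 3, 4, 5 or 6 left out (adjusted p = 0.121 to 0.129) and against the empty vector alone (adjusted p = 0.136).

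GPX2 in SW620 had group medians of 10.66 (HRAS) to 11.51 (cells without transduction). Single arrays departed from these, with 12.46 in the MAP2K2 knockdown, replicate 1, 12.06 and 8.57 in the MAPK3 knockdown, replicates 1 and 2, and 9.28 and 9.56 in replicate 1 of the HRAS and NGFR knockdowns. The 8.57 and 9.56 come from arrays with degraded RNA. Within replicates 3 to 6 GPX2 lay under all controls in each of the 6 SW620 knockdowns, by -0.77 (HRAS) to -0.14 (NGFR), and AKR1C3 did so for CDK5 (-0.69), MAP2K1 (-0.85) and MAP2K2 (-1.19) as well as HRAS. With these replicates alone 8212 to 10518 of all genes were called in the SW620 knockdowns, so such separation is not particular to these genes. Replicates 1 and 2 were above the mean of their controls for AKR1C3 in the CDK5, MAP2K1 and MAP2K2 knockdowns, where CDK5 has no replicate 1. Over all arrays the GPX2 changes ran from -0.70 ± 0.34 (HRAS, adjusted p = 0.111) to 0.23 ± 0.34 (MAP2K2, adjusted p = 0.682).

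Tested as a difference between lines, SW480 minus SW620, the GPX2 change was larger in SW480 by 1.88 ± 0.49 for CDK5 (adjusted p = 0.00488), 2.01 ± 0.48 for MAP2K1 (adjusted p = 0.00248), 1.49 ± 0.48 for MAP2K2 (adjusted p = 0.0312) and 2.93 ± 0.48 for MAPK3 (adjusted p = 4.5e-06). AKR1C3 differed by 1.62 ± 0.56 for MAP2K2 (adjusted p = 0.0477) and 1.87 ± 0.56 for MAPK3 (adjusted p = 0.0127). These were all the calls among the 9 members for CDK5 (1 of 9, 15.6% of all genes), MAP2K1 (1, 11.5%), MAP2K2 (2, 10.4%) and MAPK3 (2, 17.0%). HRAS had none (18.9%), with 1 at an unadjusted limma p under 0.05, and NGFR 1 (23.7%), which was GCLM.

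Both MAP2K2 differences ended without the 3 arrays apart (AKR1C3 0.68, adjusted p = 0.113, and GPX2 0.81, adjusted p = 0.121) and without replicate 3, 4, 5 or 6 (adjusted p = 0.122 to 0.174), whereas those of MAPK3 were still called without the 3 arrays (1.12, adjusted p = 0.00392, and 2.35, adjusted p = 3.5e-07). The AKR1C3 difference for MAPK3 ended without replicate 3, 4 or 5 (adjusted p = 0.0626 to 0.0774). With both GPX2 probe sets averaged, the GPX2 differences were 0.90 for CDK5, 0.85 for MAP2K1, 0.58 for MAP2K2 (adjusted p = 0.145) and 1.36 for MAPK3.

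AKR1B10, a reductase of retinal and lipid aldehydes, stayed between 3.79 and 4.91 on all arrays of SW480 and between 3.86 and 4.91 in SW620. In the HRAS knockdown of SW480 it read 4.91, 4.73, 4.56, 4.25, 4.28 and 4.12 in replicates 1 to 6. Replicate 1 lay above its controls (4.58 and 4.49), while replicate 2 and replicates 3 to 6 overlapped theirs. AKR1B10 was called there (0.28 ± 0.07, adjusted p = 0.00114), above the mean of its series on 5 of 6 arrays, and the call ended without replicate 3 (0.19, adjusted p = 0.0727). By its name the AKR1B10 probe set can bind related transcripts, and its level lay under the array medians.

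NQO1 fell in the NGFR knockdown of SW480 and was called in no other knockdown. It read 9.94, 9.70, 9.85, 9.88, 9.83 and 9.89 in replicates 1 to 6, all under the lowest of the 12 controls, 10.29. The change was -0.82 ± 0.22 (1.77-fold, adjusted p = 0.00248), and of similar size in each series (-0.68, -0.62 and -0.91). NGFR encodes a neurotrophin receptor, and it fell by 3.43 there. With arrays averaged in pairs by the endings of their names the NQO1 call ended (-0.78, adjusted p = 0.125).

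In the MAPK3 knockdown of SW480, NQO1 read 11 in replicate 2 and 11.31, 11.18, 11.30 and 11.16 in replicates 3 to 6, above all 12 controls, but 8.17 in replicate 1. Its change over all arrays was 0.01 ± 0.22 (adjusted p = 0.985). Without the 3 arrays apart it was 0.50 (adjusted p = 0.0547), and without these and the degraded arrays 0.50 (adjusted p = 0.00333). In SW620, NQO1 changed by -0.60 ± 0.23 in the CDK5 knockdown (adjusted p = 0.0521), where replicates 3 to 6 read 10.53 to 10.57, under their controls (11.43 to 11.53), and replicate 2 read 11.10, above its own.

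**Figure D5:**
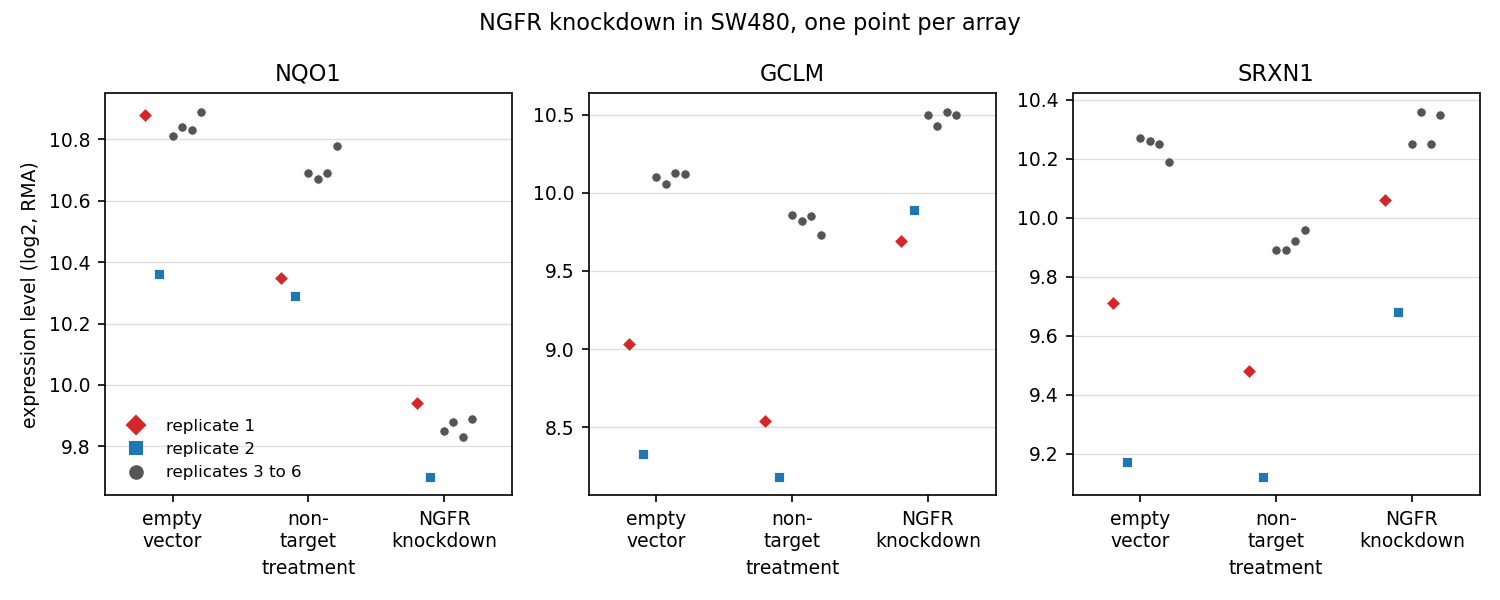
Log2 level of NQO1, GCLM and SRXN1 on the SW480 arrays of the NGFR knockdown and the vector controls, 1 point per array, coloured by label series. NQO1 (9.70 to 9.94) lies under all controls, GCLM (9.69 to 10.52) above the controls of its series, and SRXN1 overlaps them in replicates 3 to 6.

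The same NGFR knockdown raised GCLM and SRXN1, so NQO1 moved against these members there. GCLM read 9.69, 9.89, 10.50, 10.43, 10.52 and 10.50 in replicates 1 to 6. The controls were 9.03 and 8.54 in replicate 1, 8.33 and 8.18 in replicate 2 and 9.73 to 10.13 in replicates 3 to 6, so every knockdown array lay above the controls of its series. GCLM rose by 0.78 ± 0.16 (1.71-fold, adjusted p = 7.99e-05), by 0.91, 1.63 and 0.53 in the 3 series. The mean of its 3 probe sets gave 0.48 (adjusted p = 0.0196), and the call ended with no term for label series (adjusted p = 0.256).

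SRXN1, which repairs overoxidised peroxiredoxins, read 10.06, 9.68, 10.25, 10.36, 10.25 and 10.35 in the NGFR knockdown of SW480, above the mean of its series on 6 of 6 arrays. Its controls in replicates 3 to 6 split by kind, with 10.19 to 10.27 for the empty vector and 9.89 to 9.96 for the non-target hairpin, so its arrays overlap the former and not the latter. SRXN1 rose by 0.32 ± 0.10 (adjusted p = 0.0133), a call that ended against the empty vector alone (0.19, adjusted p = 0.323) and without replicate 6 (0.33, adjusted p = 0.0543).

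TXNRD1, the cytosolic thioredoxin reductase, rose in the HRAS knockdowns of both lines and in the MAPK3 knockdown of SW620. In the HRAS knockdown of SW480 it read 10.49, 9.35, 10.70, 10.59, 10.80 and 10.75 in replicates 1 to 6, each above the controls of its series (9.63 and 9.80, then 9.03 and 8.92, then 10.24 to 10.35). In SW620 the HRAS arrays read 9.85, 9.40, 10.20, 10.23, 10.25 and 10.17, again above all controls of their series, the highest of which was 10.02. The changes were 0.47 ± 0.11 in SW480 (adjusted p = 0.000398) and 0.34 ± 0.11 in SW620 (adjusted p = 0.00958). With the mean of both TXNRD1 probe sets, of which the other read 3.09 and 3.07, they were 0.22 (adjusted p = 0.00695) and 0.17 (adjusted p = 0.0331).

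In the MAPK3 knockdown of SW620 TXNRD1 read 9.79, 10.32, 10.28, 10.32, 10.34 and 10.27, above all controls of its series. It rose by 0.55 ± 0.11 (1.46-fold, adjusted p = 3.77e-05), by 0.49, 1.41 and 0.35 in the 3 series, of which the value of replicate 2 comes from an array with degraded RNA. SRXN1 rose in the same knockdown by 0.31 ± 0.10 (adjusted p = 0.015), with 10.19, 10.58, 10.09, 9.96, 10.09 and 10.04 in replicates 1 to 6. That call rests on replicate 2, at 1.14 above its controls against 0.25 in replicate 1 and 0.11 in replicates 3 to 6. Without the arrays of degraded RNA the SRXN1 change was 0.18 (adjusted p = 0.165).

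GCLM rose in 4 SW620 knockdowns, HRAS, MAP2K1, MAP2K2 and MAPK3, and its partner GCLC in none. SW620 controls of GCLM read 8.01 and 7.90 in replicate 1, 7.33 and 7.23 in replicate 2 and 8.83 to 8.98 in replicates 3 to 6. In replicates 3 to 6 the HRAS arrays read 9.46 to 9.50, those of MAP2K1 9.21 to 9.36, those of MAP2K2 9.28 to 9.37 and those of MAPK3 9.03 to 9.22. All 16 lay above the controls of that series, while the replicate 1 arrays of MAP2K1 (7.67) and MAPK3 (7.93) lay under the mean of theirs.

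The GCLM change in SW620 was 0.61 ± 0.16 for HRAS (1.52-fold, adjusted p = 0.00167), 0.47 ± 0.16 for MAP2K1 (adjusted p = 0.0261), 0.56 ± 0.16 for MAP2K2 (adjusted p = 0.0058) and 0.50 ± 0.16 for MAPK3 (adjusted p = 0.0117). The MAP2K1 and MAPK3 values rest on replicate 2, where these arrays had degraded RNA and GCLM at 9.01 and 9.46, 1.72 and 2.18 above its controls. Without the degraded arrays they were 0.31 (adjusted p = 0.124) and 0.25 (adjusted p = 0.192), and neither was called. In the CDK5 knockdown the change was 0.41 ± 0.17 (adjusted p = 0.071) with 5 of 5 arrays above the control mean of their series. The NGFR change of GCLM was larger in SW480 than in SW620 by 0.61 ± 0.23 (adjusted p = 0.0389), a difference that ended without the degraded arrays (0.43, adjusted p = 0.0872), without replicate 1 (0.37, adjusted p = 0.177), and without replicate 3, 4, 5 or 6 (adjusted p = 0.0831 to 0.103).

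In the HRAS knockdown of SW480 GCLM was not called (0.21 ± 0.16, adjusted p = 0.346), and its arrays fell into 2 pairs. Replicates 3 and 4 read 9.66 and 9.72 and replicates 5 and 6 read 10.51 and 10.55. The GAPDH 3′ minus 5′ difference moved with this split, at 1.39 and 1.47 in the first pair and 0.41 and 0.32 in the second, and its part in the result was not tested.

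GCLC was called in 1 knockdown, that of CDK5 in SW620. It read 8.26 in replicate 2 and 9.26, 9.33, 9.31 and 9.24 in replicates 3 to 6, below all controls of its series (8.74 and 8.66, then 9.54 to 9.67). The fall was 0.39 on the log2 scale (-0.39 ± 0.10, 1.31-fold, adjusted p = 0.00147), in 5 of 5 arrays. GCLC was not called in the other 5 SW620 knockdowns (-0.21 to -0.11) or in SW480 (-0.17 to 0.18). Its probe set, like that of NQO1, can bind related transcripts.

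HMOX1 fell in the MAPK3 knockdown of SW480 and in the CDK5 knockdown of SW620, both close to the threshold. In the former it read 5.75, 6.69, 6.44, 6.52, 6.46 and 6.48 in replicates 1 to 6, so replicates 3 to 6 lay under their controls (6.82 to 7.10) and replicate 2 above its own (6.60 and 6.30). In the latter it read 6.04 in replicate 2, above its controls (5.93 and 5.69), and 5.17 to 5.37 in replicates 3 to 6, under theirs (5.72 to 6.17). The changes were -0.38 ± 0.13 (adjusted p = 0.0392) and -0.36 ± 0.14 (adjusted p = 0.0411). The first call ended without the 3 arrays apart (-0.31, adjusted p = 0.158), and both ended without replicate 3, 4, 5 or 6 (adjusted p = 0.144 to 0.256) and, with adjusted p = 0.236 and 0.223, when only the non-target hairpin served as control. On the other side, HMOX1 changed by 0.32 ± 0.13 in the HRAS knockdown of SW480 (adjusted p = 0.0554) and by 0.32 ± 0.13 in the MAP2K2 knockdown of SW620 (adjusted p = 0.0557), where replicate 1 alone read 7.13.

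None of the 9 members was called between the non-target hairpin and the empty vector, in SW480 (0.101% of all genes called) or in SW620 (0.00506%), or between the vector controls and cells without transduction, in SW480 (0%) or SW620 (5.88%). By an unadjusted limma p under 0.05 the counts were 1, 0, 0 and 0 members. The 1 was SRXN1, lower with the non-target hairpin in SW480 (-0.27 ± 0.12). The intervals were wide for AKR1C3, whose difference of vector controls from SW480 cells without transduction was 0.93 ± 0.62 (95% interval -0.32 to 2.17). Replicate 7 holds only cells without transduction and takes its own series term, so these comparisons rest on replicates 1 and 2.

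The transcripts of the regulators of NRF2 changed in both lines. NFE2L2 itself fell in the NGFR knockdown of SW480 (-0.83 ± 0.14, adjusted p = 2.17e-06) and in 4 SW620 knockdowns, those of HRAS (-0.65, adjusted p = 0.00013), MAP2K1 (-0.71, adjusted p = 8.91e-05), MAP2K2 (-0.52, adjusted p = 0.00396) and NGFR (-1.30, adjusted p = 1.42e-11). The NGFR value in SW620 was -0.97 without the degraded arrays. NGFR itself was not called lower in that SW620 knockdown, so changes there are those of the hairpin group. KEAP1, which holds NRF2 down, rose in SW620 for CDK5 (0.46 ± 0.13), HRAS (0.44 ± 0.12), MAP2K2 (0.50 ± 0.12) and NGFR (0.44 ± 0.12). BACH1, the competitor of NRF2, fell in the NGFR knockdown of SW480 (-0.79 ± 0.18, adjusted p = 0.000376). Between the lines NFE2L2 did not pass the test (0.09 ± 0.12, adjusted p = 0.606), and KEAP1 was lower in SW620 (-0.30 ± 0.11, adjusted p = 0.0163). A transcript level says nothing of the amount of NRF2 protein. In the SW480 knockdowns with raised GPX2, changes of NFE2L2 ran from -0.11 to 0.34 and none was called, although the CDK5 value passed without the degraded arrays (0.34, adjusted p = 0.0162).

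Of the 10 measured genes of the regulator list, 2 were called for HRAS in SW480, 6 for NGFR, 1 each for CDK5 and MAPK3 and none for MAP2K1 and MAP2K2. The shares of all genes were 26.2%, 24.0%, 8.06% for CDK5, 10.7% for MAPK3, 6.54% and 5.17%. In SW620 the counts were 6 for CDK5, 5 for HRAS, 5 for MAP2K1, 7 for MAP2K2, 6 for MAPK3 and 6 for NGFR, where 24.0%, 31.0%, 19.1%, 23.2%, 29.8% and 26.3% of all genes were called. SQSTM1, the autophagy adaptor that binds KEAP1, fell in the CDK5 knockdown of both lines (-1.30 ± 0.17 in SW480 and -1.71 ± 0.18 in SW620). MAFF, a small MAF gene, was among the 3 regulators with the smallest p in 5 SW620 knockdowns, all but HRAS, with changes from -1.79 (CDK5) to -0.87 (MAPK3).

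Of 30 other measured NRF2 targets, 7 were higher and 1 lower in the MAPK3 knockdown of SW480, where GPX2 and AKR1C3 rose, with a median change of 0.09 against 0.01 over all genes, of which 4.21% were called higher and 6.46% lower. They included SLC7A11, the cystine transporter that feeds glutathione synthesis (1.23 ± 0.25, adjusted p = 0.000198), AKR1C2 (1.17 ± 0.28, adjusted p = 0.00196) and PIR (0.87 ± 0.24, adjusted p = 0.00869). Without the 3 arrays apart 6 were higher and none lower, with AKR1C2 at 0.78 (adjusted p = 0.0192) and SLC7A11 at 1.22. AKR1C1 rose too (0.63, adjusted p = 0.0132) but not without those arrays (0.40, adjusted p = 0.108), and AKR1C4, of the list of aldo-keto reductases, rose by 0.53 (0.45 without them, adjusted p = 0.0327). The AKR1C genes are related in sequence, so their probe sets, that of AKR1C3 included, may read one another's transcripts, which was not tested.

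In the other SW480 knockdowns 3 of the 30 were higher and 1 lower for CDK5, 3 and 5 for HRAS, 2 and 1 for MAP2K1, none and 3 for MAP2K2 and 2 and 3 for NGFR. Over all genes the shares higher and lower were 4.15% and 3.9% for CDK5, 9.97% and 16.2% for HRAS, 3.2% and 3.34% for MAP2K1, 2.07% and 3.09% for MAP2K2 and 13.1% and 10.9% for NGFR. PIR rose for CDK5 (0.98 ± 0.24) and MAP2K1 (0.78 ± 0.24), and SLC7A11 for MAP2K1 (0.99 ± 0.25). Without the 3 arrays apart the MAP2K1 change of PIR was no longer called (0.74, adjusted p = 0.0846). In SW620 more of the 30 were lower than higher in each knockdown: 7 against 2 for CDK5, 10 against 2 for HRAS, 6 against 2 for MAP2K1, MAP2K2 and MAPK3 alike, and 5 against 2 for NGFR. Of all genes 13.4% were lower and 10.6% higher for CDK5, 16.8% and 14.2% for HRAS, 9.28% and 9.77% for MAP2K1, 12.7% and 10.5% for MAP2K2, 15.9% and 13.9% for MAPK3 and 13.4% and 12.9% for NGFR. Without the degraded arrays the MAPK3 count was 3 lower and 4 higher. SLC7A11 fell there for CDK5 (-2.07 ± 0.27), HRAS (-1.41 ± 0.25) and NGFR (-1.65 ± 0.25), the export pump ABCC3 for HRAS (-2.48 ± 0.24), while PRDX1, a peroxiredoxin, rose for CDK5, HRAS, MAP2K1, MAP2K2 and NGFR, with 0.40 to 0.66. GCLM, whose ligase acts on the cysteine that SLC7A11 supplies, thus rose for HRAS in SW620 where SLC7A11 fell. Between the lines 10 of the 30 were higher in SW620 (23.2% of all genes) and 9 lower (22.1%), led by ABCC2 (1.92 ± 0.11), CBR3 (-1.86 ± 0.12) and BLVRB (-1.18 ± 0.09).

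Among 5 other aldo-keto reductases, AKR1E2 rose in all 6 SW620 knockdowns (0.45 to 0.90), and AKR1C4 fell for HRAS in SW620 (-1.09 ± 0.14), the knockdown in which AKR1C3 fell as well. AKR1C4 was also higher in SW620 than in SW480 (1.52 ± 0.12). Of the 5, 2 were higher and none lower for CDK5, MAP2K1, MAPK3 and NGFR in SW620, and 1 went each way for HRAS and MAP2K2. Of 17 other antioxidant enzymes, SOD1, the cytosolic superoxide dismutase, rose in all 6 SW620 knockdowns (0.47 to 0.67). GLRX fell there for CDK5, HRAS, MAP2K2 and NGFR (-1.11 to -0.61). Of the 17, the counts higher and lower in SW620 were 1 and 3 for CDK5, 2 and 3 for HRAS and 1 and 3 for MAP2K1. They were 1 and 2 for MAP2K2, 3 and 4 for MAPK3 and 3 and 3 for NGFR. The shares of all genes in SW620 are those given above for the other NRF2 targets. PRDX6 fell in the NGFR knockdown of SW480 (-1.66 ± 0.08, adjusted p = 2.32e-30), the knockdown in which NQO1 fell. The list had 7 calls for HRAS in SW480 (2 higher and 5 lower, where 9.97% and 16.2% of all genes were), with CAT at -1.08 ± 0.18, and none for MAP2K1 (6.54% of all genes) and MAPK3 (10.7%).

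Across the 18 group means, centred within each line, the gene most like AKR1C3 was AKR1C2 (Pearson r = 0.92), followed by GSEC (0.87) and AKR1C1 (0.85). GPX2 was most like CNTN1 (0.91), CLRN3 (0.89) and DKK4 (0.89), and none of these 3 is in the lists. Among the members, AKR1C3 and GPX2 had the highest correlation (0.75), followed by GCLM with SRXN1 (0.73) and GCLC with SRXN1 (0.59), and AKR1B10 with GCLC the lowest (-0.53). The ligase subunits GCLM and GCLC correlated at 0.41 and TXNRD1 with SRXN1 at 0.57. The nearest genes were EMC8, TOR1A and LRRC57 for GCLM (each 0.94), SNX5 for TXNRD1 (0.91), TAF4B for GCLC (0.89), GARNL3 for AKR1B10 (0.88), EIF3J for SRXN1 (0.87), LYPD3 for HMOX1 (0.85) and FKBP11 for NQO1 (0.82). The groups share arrays, label series and normalisation across genes, so these values describe 18 points and carry no test. The means are of levels as they are, without adjustment for label series, and they include the 3 SW480 arrays apart. On those arrays AKR1C3 was 8.57 to 9.89 and GPX2 10.65 to 11.8. The groups without transduction and the CDK5 knockdown in SW620 also hold other proportions of the label series than the rest. The part of the arrays apart and of these proportions in the r values was not tested.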

How the data were processed

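Total RNA of SW480 and SW620 cells was hybridised to Affymetrix arrays. The deposited values are log2 levels that the authors made with RMA, per the submitters' processing notes. Its version, and whether all arrays were normalised together, are not given in the sources used here. The values were used as deposited. Array number, not depth, limits the precision.

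Of 54675 probe sets, 41097 name 1 gene and were used. Left out were 1801 that name several genes and 11777 that name none. Symbols of 41043 were updated by identifier from the RefSeq gene table, and 54 were kept. Each gene is its brightest probe set, without a filter on dim genes.

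Groups follow the labels. The series text speaks of 8 knocked-down genes, of which 6 are analysed here. Titles call 2 arrays without transduction replicate 7, where another label field gives replicate 4, and the titles were followed.

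A limma fit (version 3.58.1, under R 4.3.3) held all arrays, with group and label series within line as terms. Its moderated tests, from lmFit and eBayes (robust, with a trend), are two-sided. Promoters, motifs and figures used Python 3.11.15, numpy 2.4.6 and matplotlib 3.10.9, and tables the data.table package, version 1.17.8. In a simulated MAPK3 knockdown in SW480 (19775 genes) the steps recovered 83.6%, 97% and 100% of genes changed by 0.5, 1 and 2 (log2), with 6.5% false calls among all calls and at most 1 call where nothing was changed. The simulation drew independent normal noise with 1 spread per gene for all arrays. In the real arrays the spread differed between label series, so these rates cannot be taken as those of the real fit.

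The members and the 4 pathway lists were chosen with earlier results of these data known, so their counts are descriptions. The rule for names allows the members, NFE2L2, KEAP1, BACH1, the targets, the 3 smallest p of each list in a comparison and the 3 genes most like each member, of which a part is printed. AKR1C1 is named beyond it for MAPK3 in SW480, chosen after its values were seen. Alternatives were a replicate block, no term for label series, probe sets averaged per gene, genes under the 40th percentile removed, a second quantile normalisation, arrays in pairs, replicates 3 to 6 only, no SW480 arrays of replicate 1, each vector control alone and each replicate left out. Chosen after seeing the data were runs without 3 arrays of degraded RNA (GAPDH difference over 2), without 3 SW480 arrays apart and without these 6.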

Additional observations from a re-analysis of the deposited data

Results flagged for a closer look

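In groups of 5 or 6 arrays, single arrays stood far from the rest of their group for a member (Dixon's gap test) in 46 of 144 sets, where chance, at about 1 in 20, would give 7.2 if all arrays of a group were alike. The test takes levels as they are, while levels follow the label series, whose part in these counts was not tested. TXNRD1 at 9.33 and GCLM at 8.25 on replicate 2 of the CDK5 knockdown in SW620, for example, are under the other arrays of their group and above the controls of their own series. In SW480 replicate 1 stood apart in 10 of these. AKR1C3 was 8.57 in the MAP2K1 and 9.78 in the MAP2K2 knockdown. GPX2 was 9.51 for CDK5, 10.65 for MAP2K1, 11.48 for MAP2K2 and 11.8 for MAPK3, NQO1 was 9.84 for MAP2K1 and 8.17 for MAPK3, and HMOX1 was 6.07 for CDK5 and 5.75 for MAPK3.

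Replicate 2 stood apart in SW480 for NQO1 with the empty vector (10.36) and for MAP2K2 (10.64), for TXNRD1 in the HRAS knockdown (9.35) and with the non-target hairpin (8.92), for GCLC in the MAP2K2 knockdown (7.4), for HMOX1 in the HRAS knockdown (6.64) and for SRXN1 in the CDK5 (9.55) and MAP2K2 (9.47) knockdowns.

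In SW620 the CDK5 knockdown has no replicate 1, and its replicate 2 stood apart for 8 members: AKR1C3 (9.6), AKR1B10 (4.78), NQO1 (11.1), TXNRD1 (9.33), GCLM (8.25), GCLC (8.26), HMOX1 (6.04) and SRXN1 (9.6). Replicate 1 stood apart in the HRAS knockdown for AKR1C3 (8.46) and GPX2 (9.28), in the MAP2K1 knockdown for TXNRD1 (8.96), GCLM (7.67) and SRXN1 (9.22), and in the MAP2K2 knockdown for AKR1C3 (10.95), GPX2 (12.46), HMOX1 (7.13) and SRXN1 (9.66). It did so in the MAPK3 knockdown for NQO1 (12.7), TXNRD1 (9.79) and GCLM (7.93), in the NGFR knockdown, an array of degraded RNA, for GPX2 (9.56), NQO1 (9.78) and GCLM (7.07), and with the empty vector for HMOX1 (5.36). Replicate 2 stood apart in the MAPK3 knockdown, also of degraded RNA, for GPX2 (8.57), with the empty vector for SRXN1 (9.43) and with the non-target hairpin for NQO1 (10.52) and SRXN1 (9.43).

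Changes that differed between the lines by the limma test of the difference, SW480 minus SW620, were those of GPX2 for CDK5 (1.88), MAP2K1 (2.01), MAP2K2 (1.49) and MAPK3 (2.93), of AKR1C3 for MAP2K2 (1.62) and MAPK3 (1.87), and of GCLM for NGFR (0.61).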

How the results depend on the processing

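The 6 called line differences, GPX2 in 4 SW480 knockdowns and AKR1C3 for MAPK3 in SW480 kept their direction and call under every alternative run, and most other counts of called members moved. The counts that moved by over 1.5 times follow, in the order CDK5, HRAS, MAP2K1, MAP2K2, MAPK3 and NGFR where all 6 are given. With replicates 3 to 6 only, SW480 had 6, 6, 7, 6, 8 and 9, SW620 6, 8, 6, 5, 7 and 3, and the differences between lines 4, 6, 5, 4, 5 and 7. Over all genes 6605 to 9682 were called in SW480, 8212 to 10518 in SW620 and 8252 to 9934 for the differences. The non-target hairpin then differed from the empty vector in 4 members in SW480 and 1 in SW620, and 3368 genes were called in that SW480 comparison of controls, against 20 over all arrays. With no term for label series, calls were 0 for HRAS and 1 for NGFR in SW480, 0 in SW620 for CDK5, HRAS, MAP2K1, MAP2K2 and MAPK3, and 1 for the MAPK3 difference and 0 for the other 5. With arrays averaged in pairs, they were 1 for NGFR in SW480, 1 for MAPK3 in SW620 and 0 for CDK5, HRAS, MAP2K1 and MAP2K2 there, and 1 for the MAPK3 difference and 0 for the other 5. Without the 3 degraded and the 3 SW480 arrays, SW480 had 2, 4, 2, 2, 7 and 6, SW620 4, 5, 2 and 3 for the first 4 and 1 for NGFR, the differences 4, 2, 3 and 1 for the first 4 and 4 for NGFR, and vector controls against cells without transduction 2 in SW620. Without the degraded arrays alone, SW620 had 4 for CDK5, 0 for MAP2K1, 2 for MAP2K2 and 1 for MAPK3, and the differences 2 for CDK5 and 2 for NGFR. Without the 3 SW480 arrays, SW620 had 4 for CDK5 and 1 for NGFR, and the differences 3 for CDK5, 1 for HRAS, 0 for MAP2K2 and 3 for NGFR. Without all SW480 arrays of replicate 1, SW620 had 4 for CDK5, 2 for MAP2K2 and 1 for NGFR, and the differences 2 for CDK5, 1 for HRAS, 0 for MAP2K2 and 2 for NGFR. The mean of all probe sets gave 4 for CDK5 and 1 for NGFR in SW620, and differences of 2 for CDK5, 1 for MAP2K2 and 0 for NGFR. Quantile normalisation gave 5 for NGFR in SW480, 2 for MAP2K2 in SW620 and 2 for the CDK5 difference, and leaving out dim genes, AKR1B10 among them, gave 2 and 2 for the latter pair. Against the non-target hairpin alone SW620 had 1 for CDK5, 0 for MAP2K1 and 2 for MAP2K2, and the MAP2K2 difference 0, and against the empty vector alone MAP2K1 in SW620 had 0 and the differences 0 for MAP2K2, 1 for MAPK3 and 0 for NGFR.

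With 1 replicate left out at a time, counts ranged in SW480 from 1 to 3 for HRAS, 1 to 2 for MAP2K1, 1 to 2 for MAP2K2, 2 to 8 for MAPK3 and 2 to 5 for NGFR. Over all genes the ranges in that order were 3234 to 6428, 516 to 3383, 391 to 2432, 1113 to 3704 and 3197 to 6296. In SW620 the member counts ranged from 1 to 5 for CDK5, 2 to 6 for HRAS, 0 to 3 for MAP2K1, 1 to 3 for MAP2K2, 1 to 5 for MAPK3 and 0 to 1 for NGFR. Those over all genes were 2989 to 7038, 4581 to 7726, 2326 to 6203, 2683 to 7277, 4551 to 8411 and 3552 to 6427. For the differences the member ranges were 1 to 5 for CDK5, 0 to 3 for HRAS, 1 to 3 for MAP2K1, 0 to 3 for MAP2K2, 1 to 4 for MAPK3 and 0 to 2 for NGFR. Over all genes they were 1338 to 4996, 1747 to 5819, 748 to 4636, 687 to 4800, 1888 to 5279 and 2904 to 6221. Arrays of 1 number did not deviate together (median r -0.02 in SW480 and 0.00 in SW620 over 112 pairs each), so the numbers are not taken as pairing. With the replicate number as a block the MAP2K2 difference had 1 call, for GPX2, since AKR1C3 ended (1.62, adjusted p = 0.0633), and the line comparison 7 calls in place of 6.

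Some changes that were not called reversed with replicates 3 to 6 only: in SW620 GPX2 for MAP2K1 (-0.17) and MAP2K2 (-0.30), AKR1C3 for MAPK3 (-0.25) and NQO1 for MAPK3 (-0.09), the differences of NQO1 (0.55) and SRXN1 (0.25) for MAPK3 and of GCLC for NGFR (-0.21), and the line difference of SRXN1 (-0.14). The NQO1 difference, -0.20 over all arrays, ran from -0.38 to 0.54 with 1 replicate left out, and was 0.54 without replicate 1. The cause was not tested. Counts over all genes moved with the label series too: for MAPK3 in SW480 2110 genes were called over all arrays, 310 with no term for label series and 7358 with replicates 3 to 6 only. No alternative moved the median change of all genes by over 0.1. Cells without transduction had no arrays among replicates 3 to 6, so those comparisons were not run there, and the line comparison was not run against 1 control alone. Signals near 4, as for AKR1B10, limit what can be read of a fall.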

Other observations

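Beyond the comparisons above, MAFF, a small MAF partner of NRF2, was higher in the vector controls of SW620 than in SW620 cells without transduction (2.82 ± 0.35, limma adjusted p = 6.42e-08), as were NFE2L1 (0.66 ± 0.15, adjusted p = 0.00355) and NFE2L2 (0.73 ± 0.22, adjusted p = 0.0363). That comparison rests on replicates 1 and 2, since the array of replicate 7 takes its own series term. No member was called in that comparison. The knockdowns of SW620 with lower MAFF and NFE2L2 are all set against those same vector controls.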
